A study of Mus musculus with 2 samples.

Results

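The 9 genes described here, Col17a1, Dst, Itga6, Itgb4, Itga3, Lama3, Lamb3, Col7a1 and Plec, encode the hemidesmosome and the matrix it binds. They were taken by symbol from the deposited table of 32285 genes, and each symbol matched 1 gene, so all 9 were followed. The measurements are single-cell 3′ RNA counts of mouse skin cells. A single capture held 6 pools of cells, each marked by its own hashtag antibody: unwounded fl/fl, unwounded +/+, fl/fl at 3 days, +/+ at 3 days, fl/fl at 5 days and +/+ at 5 days after wounding. All mice were C57B6/J and carried Sox9-CreER and R26-LSL-YFP. The fl/fl mice also carried floxed alleles of Phgdh, the first enzyme of serine synthesis, where the +/+ mice had intact ones. Sox9-CreER acts in Sox9-expressing cells, which in skin lie in the hair follicle, so YFP marks those cells and their descendants, and other skin cells were outside the sort. The unwounded gate took viable YFP+ cells with high integrin-α6 that carried both CD34 and CD200, and left out cells with SCA1, CD45, CD31, CD117 or CD140a. The wounded gate took viable YFP+ cells with high integrin-α6 and left out CD45, CD31, CD117 and CD140a cells. It used neither SCA1 nor CD34 nor CD200. The sort therefore used the protein of a member, Itga6, in all 6 pools. The difference between the wounded and unwounded gates cannot be told apart from wounding. The labels give no age and no number of animals, and state that males and females were pooled.

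Hemidesmosomes rivet basal keratinocytes to the basement membrane. Integrin α6β4 spans the membrane with the transmembrane collagen Col17a1, the plakins Plec and Dst link them to keratin filaments, and outside the cell α6β4 binds a laminin that holds the Lama3 and Lamb3 chains. Col7a1 forms the anchoring fibrils beneath, and integrin α3, the product of Itga3, pairs with β1 to bind the same laminin in focal contacts. In human skin, inherited loss of these genes causes blistering disease, Col17a1 is known for its role in hair follicle stem cell maintenance, and migrating wound keratinocytes are known for high production of this laminin.

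Dst and Col17a1, whose levels differed by the most CPM, though not always by the largest fold, between unwounded and wounded pools, are shown with the 250 bases before their RefSeq start sites (GRCm38.p6, the assembly of the mm10 build in the labels). Windows of Dst were at hand for a start after chr1:34011345-34011594, called first here, and for one after chr1:34160010-34160259, called second, both on the + strand. The gene begins upstream of both, at chr1:33907888, where no window was at hand. Its transcripts from separate starts encode different plakins, of which the epithelial form is the hemidesmosomal one. The deposited counts are summed per gene and do not tell these forms apart. The Col17a1 window is chr19:47692043-47692292 on the - strand, printed in the gene's direction. Capitals mark the GC box letters GGGCGG on either strand.
Dst, first start: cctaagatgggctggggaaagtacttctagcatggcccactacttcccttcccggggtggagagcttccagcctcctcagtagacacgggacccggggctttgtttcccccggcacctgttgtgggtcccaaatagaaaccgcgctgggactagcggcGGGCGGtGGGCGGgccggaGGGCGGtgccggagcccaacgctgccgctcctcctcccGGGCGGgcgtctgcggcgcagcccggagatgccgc
Dst, second start: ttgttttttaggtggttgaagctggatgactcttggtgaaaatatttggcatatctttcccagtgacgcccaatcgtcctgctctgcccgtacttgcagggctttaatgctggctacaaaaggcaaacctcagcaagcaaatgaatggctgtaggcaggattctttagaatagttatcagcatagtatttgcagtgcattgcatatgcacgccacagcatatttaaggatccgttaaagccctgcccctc
Col17a1: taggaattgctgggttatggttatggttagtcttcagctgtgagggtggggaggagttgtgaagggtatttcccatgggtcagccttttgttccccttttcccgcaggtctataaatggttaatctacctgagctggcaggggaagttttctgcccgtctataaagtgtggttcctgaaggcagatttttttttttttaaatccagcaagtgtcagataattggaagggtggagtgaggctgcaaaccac
The first Dst window held 4 matches and the second Dst window and the Col17a1 window held 0. GGGCGG was found in 32.7% of 32851 windows of this length and in 4 of 8 windows of 5 members (Dst, Col17a1, Lamb3, Itga3 and Col7a1). TGANTCA, the AP-1 letters, was found in 6.75% of all windows and in 0 of those 8, so no match of one motif overlapped the other.

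After filtering, 662 fl/fl and 406 +/+ cells were unwounded, 523 fl/fl and 1281 +/+ cells came from 3 days, and 1434 fl/fl and 1353 +/+ cells from 5 days. The wounded pools held between 22247350 and 70925244 UMIs, and the unwounded pools 5167131 (fl/fl) and 3241223 (+/+), with medians of at least 36277 UMIs per wounded cell and at most 7243 per unwounded cell. A count of 3 UMIs, the limit that a count of 0 allows, was worth 0.581 and 0.926 CPM (UMIs scaled to the total of the pool) in the unwounded fl/fl and +/+ pools and at most 0.135 CPM in the wounded ones. Each condition is 1 pool, so no test between conditions could be run. Intervals are 95% intervals that cover counting error only, not the spread between animals, and higher or lower describes these pools. A gene is said to be past 1.5-fold when its fold reaches that size and its interval leaves out no difference. Levels of Phgdh were lower in fl/fl than in +/+ at every stage: 25.2 against 54.3 CPM unwounded, 15.3 against 117 CPM after 3 days, 20.2 against 138 CPM after 5 days. The labelled cell type was met by the unwounded pools, where bulge-like clusters, named from hair follicle stem cell markers, made up 90.5% of fl/fl and 84.2% of +/+ cells. They made up 17.6% and 17.5% of fl/fl and +/+ cells at 3 days and 2.72% and 7.61% at 5 days. Fibroblast markers summed to 32.3 (fl/fl) and 29.3 CPM (+/+) in the unwounded pools and at most 1.66 CPM in the wounded ones, and immune markers to at most 9.25 CPM in any pool. A shallow cluster led by Dct and Pmel held 6.34% of fl/fl and 12.6% of +/+ unwounded cells. It was left unnamed, since only 7.77% of its cells held the melanocyte marker UMIs that the naming rule asks for. Melanocyte markers summed to 18.4 CPM in the unwounded fl/fl pool and 0.617 CPM in the +/+ one. Without this cluster 0 of the medians below moved beyond the counting interval of the member in the middle. Cells called female from Xist and Y-linked genes were 31.1% of the +/+ pool at 3 days and 23.7% of the +/+ pool at 5 days, and 0 in the other 4 pools.

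The members did not move as a block. Dst and Col17a1 were several-fold lower in every wounded pool than in the unwounded pool of the same genotype, Itga6 and Lama3 were about 2-fold higher at 3 days, and Col7a1 was lowest at 3 days. Itgb4, Itga3, Lamb3 and Plec lay within 1.5-fold of the unwounded level at 3 days and were lower at 5 days than at 3 days in both genotypes, Plec by less than 1.5-fold. The fl/fl pool differed from the +/+ pool of its stage by less than 1.5-fold for all 9 members at all 3 stages. The plot of levels by pool shows these courses.

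**Figure D1:**
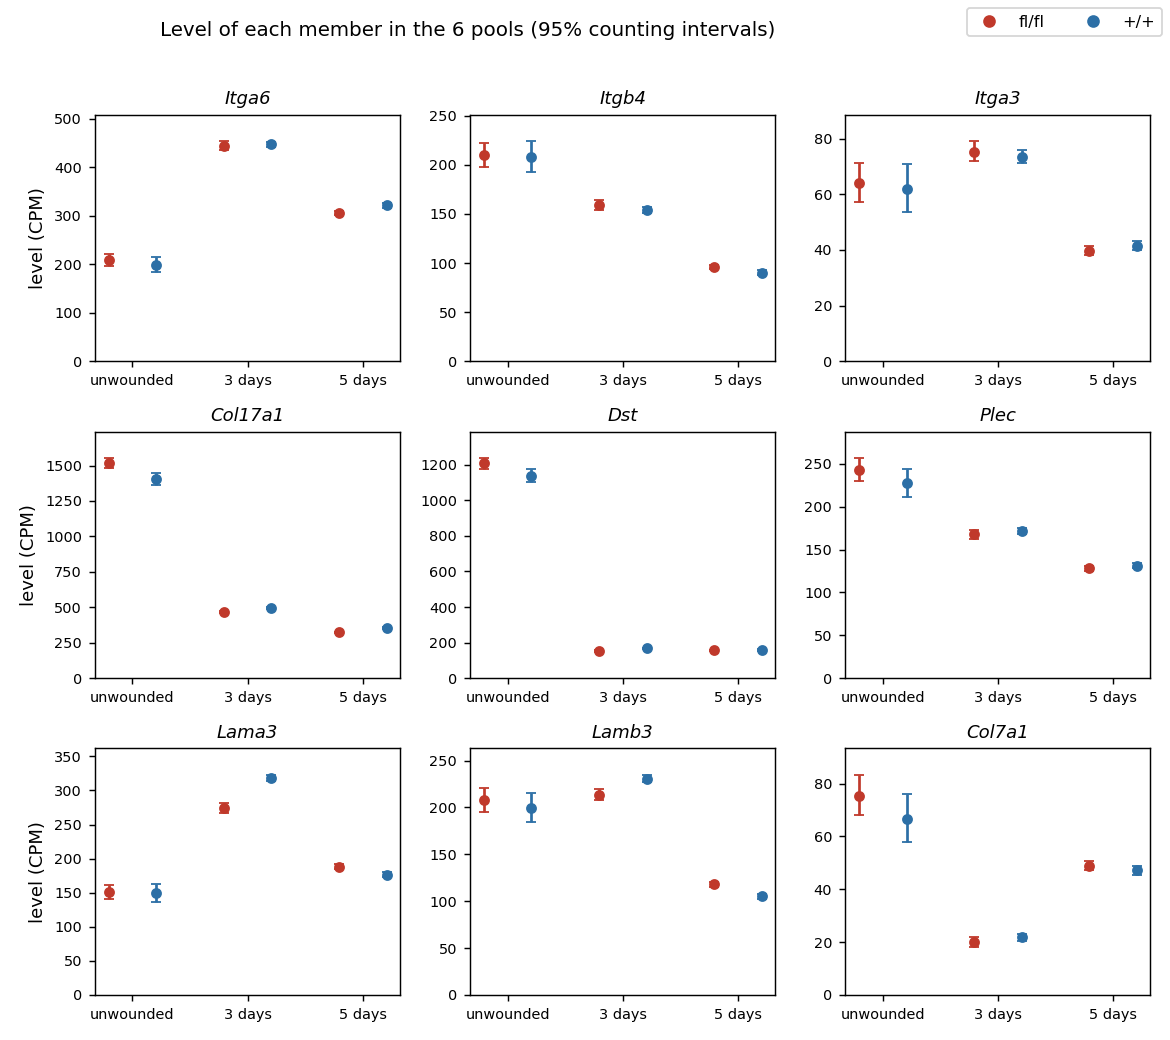
Level of each member in CPM (y axis, from 0, its own scale per gene) in the unwounded, 3-day and 5-day pools, fl/fl in red and +/+ in blue. Each point is 1 pool and the bars are 95% counting intervals. Dst stands at 1208 and 1139 CPM in the unwounded fl/fl and +/+ pools and at most at 167 CPM in the wounded ones, while Itga6 is highest at 3 days.

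Among the membrane receptors, Itga6 (ENSMUSG00000027111, chr2:71786886-71858427) stood at 208, 445 and 306 CPM in the unwounded, 3-day and 5-day fl/fl pools and at 199, 447 and 321 CPM in the same +/+ pools. Both 3-day pools were the highest and both unwounded pools the lowest. Relative to the unwounded pool of the same genotype the log2 fold at 3 days was 1.10 (1.0 to 1.19) in fl/fl and 1.17 (1.05 to 1.28) in +/+, and at 5 days it was 0.56 (0.47 to 0.65) and 0.69 (0.58 to 0.81). Itgb4 (ENSMUSG00000020758, chr11:115974725-116008412), the partner of α6 in the hemidesmosome, took another course, with 209.6, 159 and 95.8 CPM in the fl/fl pools and 208, 154 and 90.0 CPM in the +/+ pools. Its log2 fold was -0.40 (-0.50 to -0.30) in fl/fl and -0.43 (-0.54 to -0.31) in +/+ at 3 days, and -1.13 (-1.22 to -1.03) and -1.21 (-1.32 to -1.09) at 5 days. Itga3 (ENSMUSG00000001507, chr11:95044475-95076844) stood at 64.1, 75.3 and 39.8 CPM in the fl/fl pools and at 61.7, 73.5 and 41.5 CPM in the +/+ pools, so that both 5-day pools were below both earlier stages. Its log2 fold was 0.23 (0.06 to 0.41) in fl/fl and 0.25 (0.05 to 0.46) in +/+ at 3 days, and -0.69 (-0.85 to -0.52) and -0.57 (-0.78 to -0.36) at 5 days.

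Col17a1 (ENSMUSG00000025064, chr19:47646341-47692042), the collagen that spans the membrane in the hemidesmosome, stood at 1519, 465 and 322 CPM in the fl/fl pools and at 1406, 495 and 354 CPM in the +/+ pools. Both unwounded pools lay far above all wounded ones. At 3 days it was 3.27-fold lower in fl/fl and 2.84-fold lower in +/+ than in unwounded cells, and at 5 days 4.72-fold and 3.97-fold lower. The intervals of these log2 folds spanned at most 0.1 on either side in each comparison, as did those of Dst. Dst (ENSMUSG00000026131, chr1:33907888-34308662) stood at 1208, 151 and 156 CPM in the fl/fl pools and at 1139, 167 and 158 CPM in the +/+ pools. It was 7.99-fold (fl/fl) and 6.83-fold (+/+) lower at 3 days, 7.75-fold and 7.22-fold lower at 5 days, and thus nearly flat between the wounded stages. Plec (ENSMUSG00000022565, chr15:76170974-76231378), the other plakin among the members, differed far less, with 243, 168 and 128 CPM in the fl/fl pools and 227, 172 and 131 CPM in the +/+ pools. It was 1.45-fold (fl/fl) and 1.33-fold (+/+) lower at 3 days and 1.90-fold and 1.73-fold lower at 5 days.

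Of the ligands, Lama3 (ENSMUSG00000024421) stood at 151, 274 and 188 CPM in the fl/fl pools and at 149, 318 and 176 CPM in the +/+ pools, highest at 3 days in both. Its log2 fold over unwounded cells was 0.86 (0.75 to 0.97) in fl/fl and 1.09 (0.96 to 1.23) in +/+ at 3 days, and 0.32 (0.22 to 0.43) and 0.24 (0.11 to 0.38) at 5 days. Lamb3 (ENSMUSG00000026639, chr1:193294353-193343878), its partner chain, stood at 208, 214 and 118 CPM in the fl/fl pools and at 199, 231 and 105 CPM in the +/+ pools, so in CPM the unwounded and 3-day pools lay close together and the 5-day pools apart. Its log2 fold was 0.04 (-0.06 to 0.14) and 0.21 (0.10 to 0.33) at 3 days, in fl/fl and +/+, and -0.81 (-0.91 to -0.72) and -0.92 (-1.04 to -0.80) at 5 days. The anchoring fibril collagen Col7a1 (ENSMUSG00000025650, chr9:108953586-108984875) stood at 75.5, 19.9 and 49.0 CPM in the fl/fl pools and at 66.6, 21.7 and 47.1 CPM in the +/+ pools. The 3-day pools were the lowest in both genotypes. Its log2 fold was -1.92 (-2.12 to -1.72) in fl/fl and -1.62 (-1.83 to -1.40) in +/+ at 3 days, and -0.62 (-0.78 to -0.47) and -0.50 (-0.70 to -0.29) at 5 days.

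Counted against all genes of at least 20 CPM, 2 members (Itga6 and Lama3) were past 1.5-fold higher and 3 (Col17a1, Dst and Col7a1) past 1.5-fold lower at 3 days in both genotypes. Among all genes, 22.7% were higher and 33.7% lower in fl/fl, and 22.0% and 34.1% in +/+. At 5 days 0 members were higher and 7 lower in fl/fl, where 22.8% of all genes were higher and 33.9% lower. In +/+ cells 1 member (Itga6) was higher and 5 (Col17a1, Dst, Itgb4, Lamb3 and Plec) lower, where 20.9% and 35.2% of all genes were. With pool totals, the 3-day shares of members thus stood near the background, and the 5-day share of lower members was above it. The median log2 fold of the members was -0.40 (fl/fl) and -0.41 (+/+) at 3 days and -0.81 and -0.79 at 5 days, and over all genes it was -0.14, -0.13, -0.13 and -0.17 in that order. TMM factors, another scaling, would add between 0.53 and 0.60 to every one of these log2 folds. Under them Col17a1 and Dst were lower and Itga6 higher by over 1.5-fold in all 4 comparisons, Lama3 was higher in all 4, Itga3 was higher at 3 days in both genotypes, Lamb3 was higher at 3 days in +/+, and the 5-day calls of Lamb3 and Plec in both genotypes and of Itgb4, Itga3 and Col7a1 in fl/fl were lost. With TMM factors 2 members were lower at 5 days in fl/fl and 3 in +/+, and the share over all genes was not computed. In fl/fl at 5 days the calls of Col7a1 and Itga3 held in 9 and 11 of 14 alternative settings, and Itga6 was past 1.5-fold higher in 6 of them. The 5-day call of Itga6 in +/+ held in 11. The plot of wound folds shows both scalings.

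**Figure D2:**
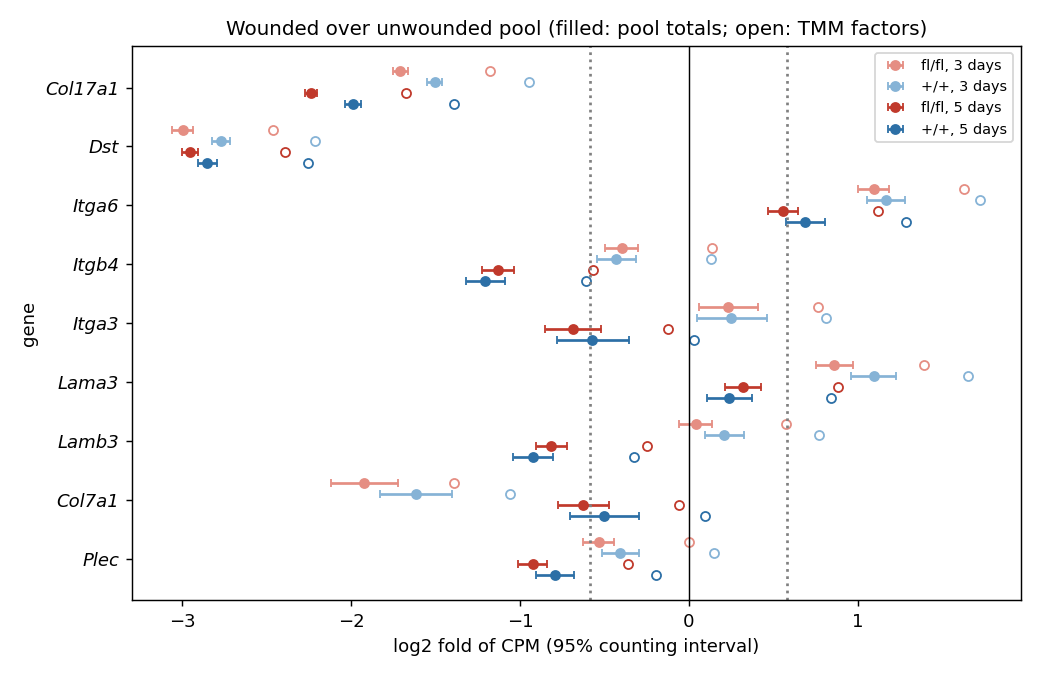
Log2 fold of each member (x axis) in the wounded pools over the unwounded pool of the same genotype, fl/fl in reds and +/+ in blues, 3 days light and 5 days dark. Filled points use pool totals with 95% counting intervals, open points use TMM factors, and dotted lines mark 1.5-fold. Dst and Col17a1 lie left of the line and Itga6 at 3 days right of it under both scalings, whereas Itgb4 and Plec at 3 days sit left of 0 with pool totals and right of 0 with TMM factors in the +/+ comparison.

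The 3-day and 5-day folds of a genotype share their unwounded pool, so the wounded stages were also set against each other directly. Col7a1 was 2.46-fold higher at 5 than at 3 days in fl/fl and 2.17-fold higher in +/+, the single member higher at the later stage past 1.5-fold. Among all genes 2.09% (fl/fl) and 0.942% (+/+) were that much higher. Itgb4, Itga3 and Lamb3 were lower at 5 than at 3 days past 1.5-fold in both genotypes, and Lama3 in +/+ alone. That is 3 of 9 members in fl/fl and 4 of 9 in +/+, where 3.65% and 2.45% of all genes were lower. Of the lower members, Itga3 differed most in fl/fl, at 1.89-fold against 1.81-fold for Lamb3, and Lamb3 in +/+, at 2.19-fold. Lama3 in +/+ fell short of 1.5-fold without the cells called female, at a log2 fold of -0.55, and without the wound-edge-like cells, a cluster led by Mmp10, at -0.28. Dst differed least, with log2 folds of 0.04 (-0.01 to 0.10) and -0.08 (-0.12 to -0.04).

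The share of cells with at least 1 UMI was read after thinning every cell to 3000 UMIs, because wounded cells were deeper. For Col17a1 it was 96.2%, 61.6% and 47.7% (unthinned 98.5%, 92.2% and 89.1%) of the unwounded, 3-day and 5-day fl/fl cells and 97.7%, 60.8% and 49.1% (unthinned 98.5%, 91.6% and 88.1%) of the +/+ cells. For Dst it was 93.6%, 38.0% and 35.9% (unthinned 97.3%, 83.9% and 87.7%) and 92.4%, 37.0% and 36.8% (unthinned 98.8%, 84.3% and 83.6%). Itga6 was found in 37.7%, 54.3% and 48.1% (unthinned 65.0%, 92.9% and 91.8%) of fl/fl and 38.7%, 55.1% and 46.0% (unthinned 67.0%, 92.5% and 87.2%) of +/+ cells, in the order of its CPM. Thinning left out between 11 and 24 cells a pool. Of the 9 immune-like cells deep enough for thinning, of median 4501 UMIs before it, 2 held Col17a1, 1 held Dst and 1 held Itga6 UMIs, which is 22.2% (2.81% to 60.0%) for Col17a1 and 11.1% (0.281% to 48.2%) for each of the others. The wounded Dst shares, the 5-day Col17a1 shares and the 5-day and unwounded Itga6 shares lie within these intervals, so 9 cells do not separate them from background. The thinned share of Lama3 lay between 29.0% and 34.9% in all 6 pools (unthinned between 56.2% and 83.5%). No order is read from it because in +/+ it was lower at 3 days (30.3%) than unwounded (34.9%), against its CPM. The thinned share of Lamb3 was 46.7%, 28.1% and 23.3% (unthinned 72.2%, 73.2% and 73.2%) of unwounded, 3-day and 5-day fl/fl cells. In +/+ cells it was 44.1%, 28.1% and 20.1% (unthinned 72.9%, 73.3% and 66.6%). It was thus lower at 3 days than unwounded in both genotypes, where its CPM was not. Of the 9 immune-like cells 2 held Lamb3 UMIs, 22.2% (2.81% to 60.0%), an interval that holds all these thinned shares. In the 3-day fl/fl pool 5 cells held 16.9% of the Lama3 UMIs and 17.3% of the Lamb3 UMIs.

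All cells were clustered without the members and the related genes, and levels were read per cluster. A cluster led by Mmp10, Mmp13 and Hmga2 was named wound-edge-like from 4 raised markers of the 6 listed for that class. Krt16, on the same list, was a top gene of an unnamed cluster led by Il33. The wound-edge-like cluster held 80 fl/fl and 168 +/+ cells at 3 days and 106 fl/fl and 81 +/+ cells at 5 days. Among 13 clusters of at least 50 wounded cells it had the highest level of 7 members. These were Itga6 (1205 CPM), Col17a1 (1126), Lama3 (1067), Lamb3 (775), Itgb4 (413), Plec (350) and Itga3 (215). It had rank 3 for Col7a1 at 70.4 CPM and rank 7 for Dst at 192 CPM. The lowest cluster for Col17a1, Itga6, Itgb4 and Itga3 was led by Flg, Mt4 and Krt1, genes of differentiating keratinocytes, at 75.9, 71.4, 12.2 and 3.83 CPM. The map of levels by cluster shows this range.

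**Figure D3:**
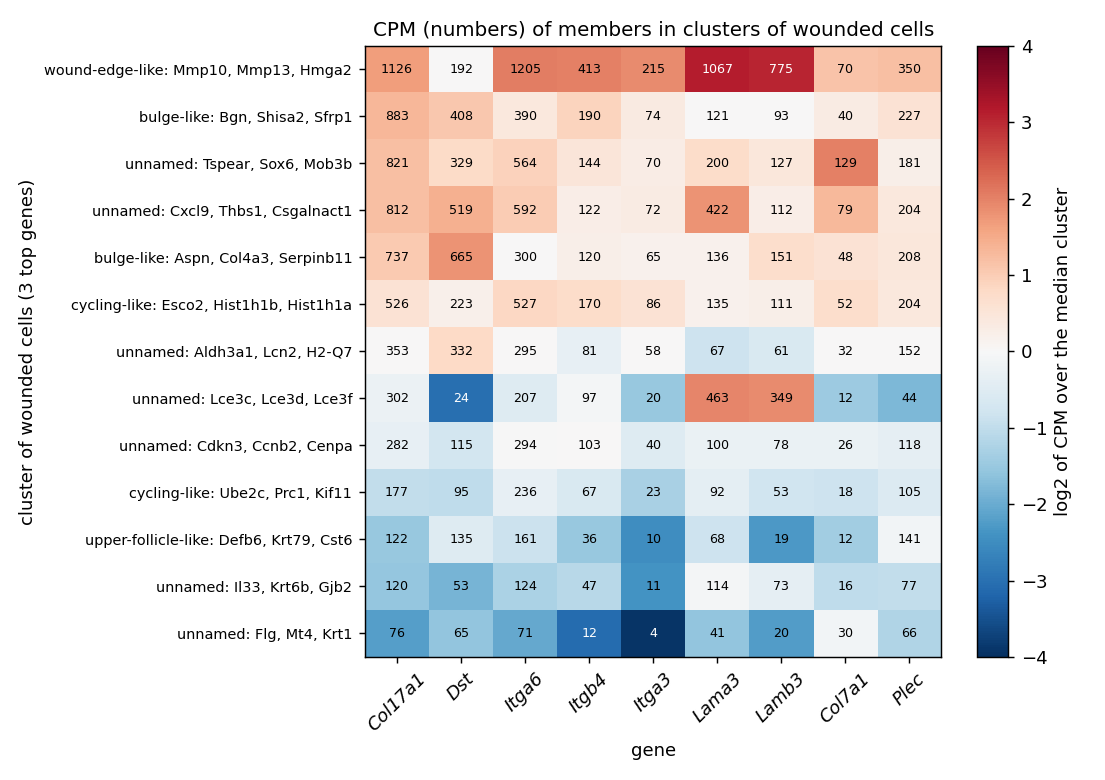
CPM of each member (numbers) in 13 clusters of wounded cells from all 4 wounded pools, rows named by class and 3 top genes and ordered by Col17a1. Colour is the log2 ratio to the median cluster of the same gene. The wound-edge-like row is highest for 7 of 9 members, while its Dst level of 192 CPM is near the median.

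At 3 days Lama3 and Lamb3 were the members with the largest share of their UMIs in wound-edge-like cells. In the 3-day pools this cluster was 15.3% of fl/fl and 13.1% of +/+ cells and held 18.5% and 15.6% of all UMIs, but 70.7% and 63.2% of Lama3 UMIs and 68.6% and 62.0% of Lamb3 UMIs. At 5 days it was 7.39% of fl/fl and 5.99% of +/+ cells and held 34.4% and 40.2% of Lama3 and 40.9% and 47.9% of Lamb3 UMIs. Its 5-day share of Itga3 UMIs was 40.2% in fl/fl, above that of Lama3, and 35.1% in +/+, below it. Its share of Dst UMIs was 18.2% and 16.7% at 3 days, close to its share of all UMIs. At 5 days it held 11.9% (fl/fl) and 9.68% (+/+) of Dst UMIs against 7.82% and 7.51% of all UMIs, and Dst stood at 238 CPM in the cluster against 149 CPM in the other fl/fl cells and at 203 against 154 CPM in +/+. In fl/fl cells at 3 days Lama3 was at 1048 CPM in the wound-edge-like cluster and 98.4 CPM in the other cells, and in +/+ cells at 1293 and 139 CPM. Without the cluster, Lama3 at 3 days was at a log2 fold of -0.50 (fl/fl) and -0.07 (+/+) over the unwounded pool, the opposite side of 0 from the whole pools. Lamb3 was at -1.28 and -0.94, Itgb4 at -0.99 and -1.03, and Itga6 at 0.51 and 0.62, past 1.5-fold higher in +/+ alone. At 5 days Lama3 without the cluster was at -0.05 (fl/fl) and -0.35 (+/+), against 0.32 and 0.24 in the whole pools. Removing the cluster also left Lama3 at 0.45, Lamb3 at -0.12 and Itgb4 at -0.57 at 5 over 3 days in fl/fl, against -0.54, -0.85 and -0.73 in the whole pools. In +/+ it left them at -0.28, -0.81 and -0.65, so that Lamb3 and Itgb4 were still past 1.5-fold lower.

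**Figure D4:**
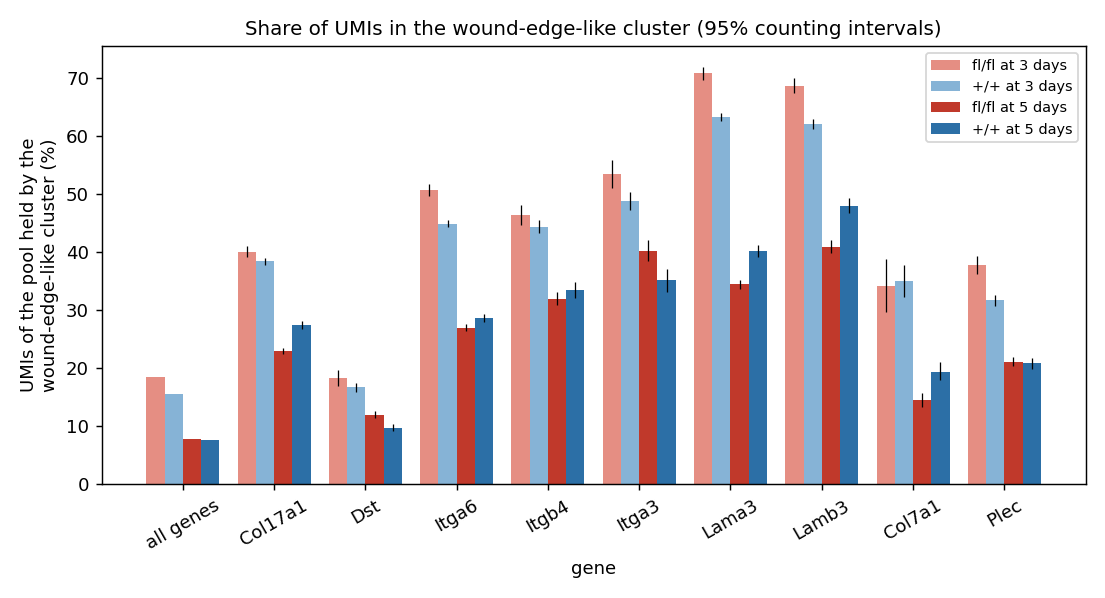
Percent of the UMIs of all genes and of each member (y axis) that lay in the wound-edge-like cluster, in fl/fl (red) and +/+ (blue) pools at 3 days (light) and 5 days (dark), with 95% counting intervals. Lama3 and Lamb3 bars reach 70.7% and 68.6% in the 3-day fl/fl pool, and Dst bars lie between 9.68% and 18.2%, beside 7.51% to 18.5% for all genes.

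Other clusters set the members apart in further ways. Col7a1 was highest in a cluster led by Tspear, Sox6 and Mob3b (129 CPM), not in wound-edge-like cells. A cluster led by the cornification genes Lce3c, Lce3d and Lce3f was second for both laminin chains, with 463 CPM of Lama3 and 349 CPM of Lamb3, and lowest for Dst (23.8 CPM), Col7a1 (11.8 CPM) and Plec (44.1 CPM). Dst was highest in the bulge-like cluster led by Aspn, Col4a3 and Serpinb11 (665 CPM). Across single cells of a wounded pool, Spearman's rho between the members' levels ranged from 0.12 to 0.75 over the 36 pairs and 4 pools, with a median of 0.53 (fl/fl) and 0.52 (+/+) at 3 days. Itga6 with Col17a1 gave 0.68 to 0.75 and Itgb4 with Col17a1 0.66 to 0.74, whereas Dst with Lama3 gave 0.12 to 0.46. These cells share a library and differ in depth, and rho is given as a description.

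The mix of clusters differed between unwounded and wounded pools, so the bulge-like cells were compared alone, although different clusters hold most of them: those led by Myoc and by Ccn2 in unwounded pools and the one led by Bgn in wounded pools. At 3 days Dst stood at 385 CPM in fl/fl against 1284 CPM in unwounded fl/fl bulge-like cells, and at 416 CPM in +/+ against 1184 CPM. Col17a1 stood at 870.2 against 1643 CPM in fl/fl and at 823 against 1602 CPM in +/+. Both were thus lower within the bulge-like class too at 3 days, by less than in whole pools. Itga6 was higher, at 395 against 169 CPM in fl/fl and 353 against 188 CPM in +/+. Lamb3 was lower, at 97.8 against 215 CPM and 92.2 against 221 CPM, and Lama3 was within 1.5-fold, at 114 against 132 CPM and 118 against 137 CPM. At 5 days +/+ bulge-like cells held 575 CPM of Dst and 1073 CPM of Col17a1, above the 3-day values by less than 1.5-fold. Against the unwounded 1184 and 1602 CPM, Dst was past 1.5-fold lower and Col17a1 fell just short of it. The fl/fl class had 39 cells at 5 days and was not compared. Clusters led by differentiation genes made up 9.94% (fl/fl) and 13.6% (+/+) of cells at 3 days and 20.3% and 20.1% at 5 days, against 0.453% and 0.493% unwounded. Without them Dst and Col17a1 were still past 1.5-fold lower in all 4 wounded comparisons.

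Phgdh genotype was set against these levels at each stage. In unwounded skin the log2 folds of fl/fl over +/+ lay between 0.01 (Itgb4) and 0.18 (Col7a1), with a median of 0.06, and 0 members were past 1.5-fold, where 0.701% of all genes were higher and 1.63% lower. At 3 days they lay between -0.22 (Lama3, -0.26 to -0.17) and 0.05 (Itgb4), with 0 members past 1.5-fold against 0.124% of all genes higher and 0.6% lower. At 5 days they lay between -0.14 (Col17a1, -0.17 to -0.11) and 0.17 (Lamb3, 0.12 to 0.22), again with 0 members past 1.5-fold against 0.162% and 1.51%. The intervals of all 27 folds leave out a 1.5-fold difference, as the plot of genotype folds shows, but they cover counting error alone, and pools of animals that were not replicated can differ by more. Cells called female were found in the wounded +/+ pools and in none of the fl/fl pools. Without them Lama3 stood at 0.06 and Lamb3 at 0.15 at 3 days, the other side of 0 from the whole pools, and 0 members were past 1.5-fold.

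**Figure D5:**
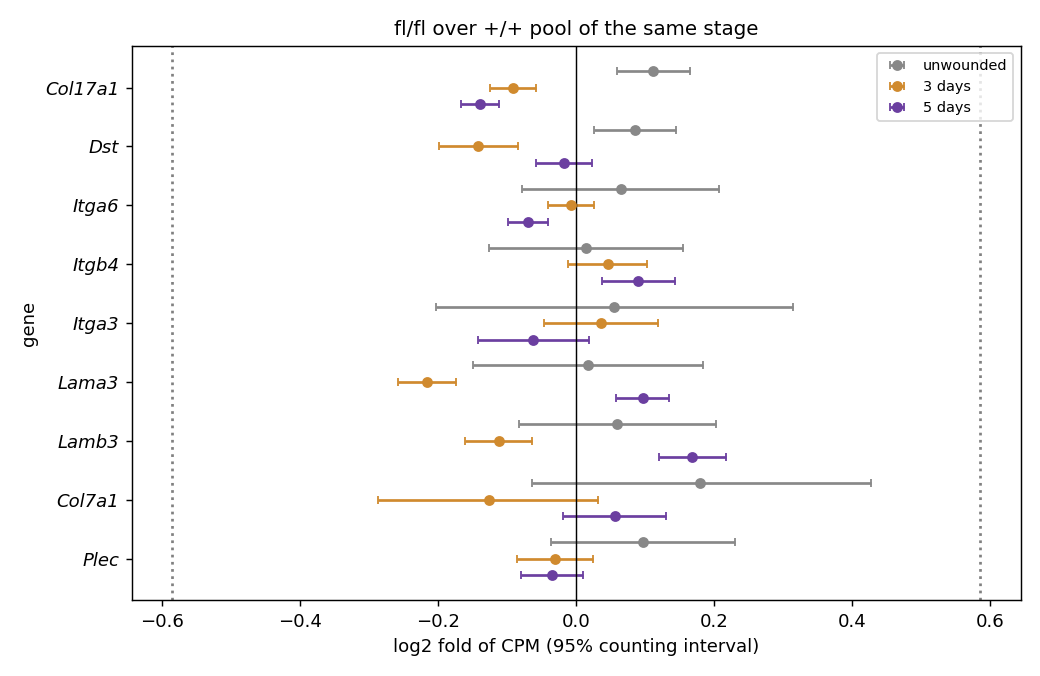
Log2 fold of each member (x axis) in fl/fl over +/+ pools, unwounded in grey, 3 days in orange and 5 days in purple, with 95% counting intervals. Dotted lines mark 1.5-fold. All 27 intervals lie between the lines.

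Genotypes were also compared within clusters of at least 50 cells in both pools. Shares of all genes are here over genes of at least 20 CPM in the cluster, as a mean of fl/fl and +/+. In wound-edge-like cells 0 members were past 1.5-fold at 3 or 5 days, where 0.755% of all genes were higher and 2.62% lower in fl/fl at 3 days, and 0.707% higher and 1.68% lower at 5 days. There the 3-day Lama3 level was 1048 CPM in fl/fl against 1293 CPM in +/+ cells, and the 5-day level was 829 against 941 CPM. In the 5-day cluster led by Il33, Krt6b and Gjb2, with 207 fl/fl and 148 +/+ cells, Lamb3 was higher in fl/fl (79.3 against 44.1 CPM), as were Lama3 (126 against 83.5 CPM) and Itgb4 (50.2 against 33.3 CPM), 3 of 9 members against 0.52% of all genes there. At 3 days the same cluster held less Itga3 in fl/fl, 10.7 against 17.7 CPM. There 1.94% of all genes were lower, a share that leaves out Itga3, which is below 20 CPM. In the 5-day cluster led by Tspear, with 163 fl/fl and 126 +/+ cells, Col7a1 was higher in fl/fl (193 against 108 CPM), as was Lama3 (269 against 166 CPM), where 4.88% of all genes were higher. In the 5-day cluster led by Flg, Itga6 was lower in fl/fl (56.3 against 94.3 CPM), where 0.88% of all genes were. Itga3 was lower there too (1.85 against 4.99 CPM), on 23 and 54 UMIs, but is below 20 CPM and outside that share. In cycling-like cells at 3 days Lama3 was lower in fl/fl, 67.8 against 102 CPM, where 0.967% of all genes were. In the other classes and clusters compared 0 members were past 1.5-fold. These were bulge-like cells, unwounded and at 3 days, cycling-like cells at 5 days, and the single clusters of both classes that were large enough. They also included the clusters led by Cdkn3 at 3 and 5 days and by Cxcl9 at 5 days. The share over all genes was not computed for them. The part of the cells called female in these cluster values was not tested.

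Related genes placed these courses in context. Among all genes at 3 days, 33.7% were past 1.5-fold lower and 22.7% higher in fl/fl, and 34.1% and 22.0% in +/+. Of 10 measured other basement membrane genes in fl/fl cells at 3 days, 9 were past 1.5-fold lower and 1 higher, with a median log2 fold of -3.56, and of 11 in +/+ cells 8 were lower and 1 higher, with a median of -3.42. Bulge-like shares and fibroblast marker sums, given above, were also lower in the wounded pools, and their part in this list was not tested. Col4a6, a collagen IV chain, stood at 5.65 CPM in +/+ cells at 3 days against 96.9 CPM unwounded, Sparc, a collagen-binding matrix protein, at 23.1 against 447 CPM, and Frem2, of the Fraser complex, at 3.42 against 57.1 CPM. The laminin chain Lamc1 was lower in both genotypes, at 14.7 against 37.4 CPM in fl/fl and 14.1 against 39.2 CPM in +/+. Among other integrins and tetraspanins at 3 days 5 of 8 were lower in fl/fl and 4 of 8 in +/+, and 1 in each was higher. That gene in +/+ was Itgb1, partner of α3, at 384 CPM against 182 CPM unwounded, and the α2 integrin Itga2 was lower at 51.8 against 113 CPM. Focal adhesion genes lay mostly within 1.5-fold, 9 of 12 in fl/fl and 10 of 12 in +/+ at 3 days, with Fermt1, the epithelial kindlin, lower at 64.5 against 137 CPM in fl/fl and 59.2 against 139 CPM in +/+. Of the 5 basal keratins and linkers 3 were lower and 1 higher at 3 days in both genotypes. Krt15 stood at 646 against 14178 CPM in fl/fl and 665 against 12806 CPM in +/+, and Krt14, the basal keratin, at 25252 against 4905 CPM and 24241 against 6251 CPM. TMM factors would add between 0.53 and 0.60 to these log2 folds too, which leaves Itga2 in both genotypes and Fermt1 in fl/fl short of 1.5-fold. Of the other basement membrane genes 7 of 10 in fl/fl and 7 of 11 in +/+ were then past 1.5-fold lower at 3 days, and 1 higher in each. Of the other integrins and tetraspanins 1 of 8 was then lower and 1 higher at 3 days in each genotype, and of the basal keratins and linkers 2 were lower and 2 higher. The share over all genes under these factors was not computed.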

How the data were processed

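The deposited matrix holds raw UMI counts per gene or hashtag and barcode, with all barcodes listed. Per the submitters' processing notes, Cell Ranger 7.1.0 and mm10 were used. Barcodes with at least 1000 UMIs, 500 genes and a mitochondrial share of up to 10% passed (6900), and HTODemux (Seurat 5.3.0, quantile 0.99) gave 5659 singlets, 503 doublets and 738 negatives. About 126 doublets within 1 hashtag are expected to remain. Free RNA, between 0.517% and 3.28% of a pool's UMIs, was not subtracted. UMIs were summed per pool (CPM). Folds carry exact conditional binomial, levels exact Poisson and shares Clopper-Pearson intervals (scipy 1.17.1). TMM factors came from edgeR 4.0.16. Cells were clustered with scanpy 1.11.5 (2000 variable genes without the listed genes, 30 components, 15 neighbours, Leiden resolution 1). A cluster took a class name from at least 3 raised markers, with 2 among its 10 top genes or 5 raised. A name also needed at least 2 UMIs of the class's markers in most cells of the cluster. This rule was set after the clusters were seen. Folds were tested on simulated data. The named genes were all members, up to 3 genes per related list with the largest folds of at least 20 CPM, and Phgdh. Members and lists were chosen with earlier results of these data known.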

Additional observations from a re-analysis of the deposited data

Results flagged for a closer look

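For 2 members the genotype difference had opposite signs at the wounded stages. The log2 fold of Lama3 in fl/fl over +/+ was -0.22 at 3 days and 0.10 at 5 days, a difference of 0.31, and that of Lamb3 was -0.11 and 0.17, a difference of 0.28. Neither difference was tested, since each condition is 1 pool. Without the cells called female, which were found in the wounded +/+ pools alone, Lama3 stood at 0.06 and 0.07 and Lamb3 at 0.15 and 0.15.

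Itga3 in both genotypes and Lamb3 in +/+ lay above the unwounded level at 3 days and below it at 5 days. The log2 fold over unwounded cells at 5 days minus that at 3 days was -0.92 for Itga3 in fl/fl, -0.82 for Itga3 in +/+ and -1.13 for Lamb3 in +/+. Both stages share the unwounded pool, and the difference was not tested. Without the cells called female, Lamb3 in +/+ at 3 days was at -0.05, already below the unwounded level. With TMM factors Itga3 in +/+ at 5 days was at 0.03, not below it. Over the 14 alternative settings the 3-day log2 fold of Itga3 went as low as -0.51 in fl/fl and -0.44 in +/+. Its place above the unwounded level at 3 days thus did not hold under every setting.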

How the results depend on the processing

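Over 14 alternative settings and 9 comparisons, 35 of 126 medians of the members' log2 folds moved. A median is said to move when it leaves the counting interval of the member that held the middle place, since none was computed for the median itself. Medians are given in the order fl/fl 3 days, +/+ 3 days, fl/fl 5 days and +/+ 5 days over unwounded, then fl/fl and +/+ 5 over 3 days, leaving out those that did not move. With TMM factors they were 0.14, 0.15, -0.25, -0.19 and, for +/+ at 5 over 3 days, -0.44. Without clusters led by differentiation genes, chosen after seeing the data, they were -0.30, -0.25, -0.64, -0.62, -0.42 and -0.40. Without the wound-edge-like cluster, also chosen after seeing the data, they were -0.99, -0.94, -1.25, -1.05, -0.15 and -0.30, and Lama3 turned to -0.50 (fl/fl) and -0.068 (+/+) at 3 days. At most 5% mitochondrial UMIs gave -0.29 (fl/fl 3 days), -1.02 (fl/fl 5 days), -0.93 (+/+ 5 days), -0.68 and -0.63, and -0.026 for fl/fl over +/+ at 3 days. At most 20% gave -0.26 and -0.64 in +/+ at 3 and 5 days. Equal weight per cell gave -0.72 (fl/fl 5 days), -0.42 and -0.32 for 5 over 3 days, and 0.036 for fl/fl over +/+ at 3 days. Without cells called female, fl/fl over +/+ gave 0.061 at 3 days and 0.073 at 5 days, and +/+ at 5 over 3 days -0.45. The hashtag rule of 20 UMIs and 70% gave -0.051 for fl/fl over +/+ at 3 days and -0.44 for +/+ at 5 over 3 days. Without the 5 highest cells per gene and pool, fl/fl at 5 over 3 days gave -0.48. Apart from the removed clusters and cells themselves, the cause was not tested. Col17a1 and Dst were past 1.5-fold lower in all 4 wounded comparisons under all 14 settings. At a call of 2-fold in place of 1.5-fold, the members lower at 5 days over unwounded were 3 in place of 7 (fl/fl) and 3 in place of 5 (+/+), those higher were 1 in place of 2 in fl/fl at 3 days and 0 in place of 1 in +/+ at 5 days, and those lower at 5 over 3 days were 0 in place of 3 (fl/fl) and 1 in place of 4 (+/+). Over all genes in the 4 wounded comparisons, that call kept 657 to 785 of 1328 to 1428 higher and 1350 to 1445 of 2108 to 2234 lower genes, and counting genes without the 20 CPM minimum gave 2298 to 2669 higher and 6015 to 6364 lower. No paired analysis was possible because each condition is 1 pool. Depth limits Col7a1 and Itga3 most, with at most 390 UMIs in an unwounded pool.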

Other observations

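Among genes of processing and shedding, Tll1, a proteinase of the tolloid family, stood at 5.21 CPM in fl/fl cells at 3 days against 60.4 CPM unwounded and at 6.95 CPM in +/+ cells at 3 days against 61.7 CPM unwounded. Adam10, a membrane sheddase, was higher, at 94.9 against 45.3 CPM in fl/fl and 106 against 48.7 CPM in +/+. Among all genes 33.7% (fl/fl) and 34.1% (+/+) were past 1.5-fold lower at 3 days, and 33.9% and 35.2% at 5 days. Of the 5 plakins that are not members, 0 were past 1.5-fold lower at 3 days in either genotype, although Dst was, and at 5 days 1 was in each genotype. That gene, Macf1, a microtubule-actin crosslinker and a close relative of Dst, stood at 638 against 835 CPM in fl/fl and 660 against 989 CPM in +/+ at 3 days, and at 512 and 473 CPM in fl/fl and +/+ at 5 days. With TMM factors 0 of the 5 were past 1.5-fold lower at either stage.

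Over the 6 pools, the genes of at least 50 CPM whose log2 CPM ran closest to the members' mean were Glud1 and Cd151, with root mean square differences of 0.0492 and 0.0494 among 2905 candidates. Cd151, a tetraspanin of hemidesmosomes and of integrin α3β1 complexes, stood at 78.4, 54.9 and 43.2 CPM in the unwounded, 3-day and 5-day fl/fl pools and at 75.9, 52.3 and 41.2 CPM in the +/+ pools. The next were Dynll2, Mapk3, Igf1r, Nudt4, Btg1 and Stt3b. Of the members, Plec ran closest to their mean (0.0301) and Dst farthest from it (1.04).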
